A study of Mus musculus with 22 samples.

Results

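The 37 genes described here make or control the junctions and keratin filaments of epithelial cells, or take part in the loss of that state known as epithelial-to-mesenchymal transition (EMT). They were chosen by symbol, as every array probe whose transcript accession maps to one of the 37 names, and that rule uses no expression value. All 37 were on the array, as 46 of its 26413 named probes and as 37 of its 20018 named genes (28 genes with 1 probe and 9 with 2). Each gene is given by its brightest probe. Expression was measured in FE1 cells, a lung epithelial line derived from the transgenic Muta Mouse, after 24 h in culture with the multi-walled carbon nanotube Mitsui7. The groups were Control (0 µg/ml, medium without nanotubes, 5 arrays), D1 (12.5 µg/ml, 6 arrays), D2 (25 µg/ml, 5 arrays) and D3 (100 µg/ml, 6 arrays). All of them, Control included, were grown with fetal bovine serum and murine epidermal growth factor, and all came from the same single line, so the values stand for that line rather than for lung epithelium in general. On each array the FE1 RNA carried Cy5 and a common reference, RNA pooled from 11 mouse cell lines, carried Cy3. The basic value is therefore a log2 ratio of FE1 to reference for one probe.

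Sheets of epithelial cells are held together by adherens junctions, built on E-cadherin, by tight junctions, built on claudins and occludin, and by desmosomes, which anchor keratin filaments. In EMT the transcription factors of the Snail, Zeb and Twist families bind short DNA elements called E-boxes in the promoters of junction genes and repress them, while N-cadherin and vimentin rise. The factors Grhl2, Ovol1 and Elf3 and the splicing factors Esrp1 and Esrp2 act in the opposite sense and maintain the epithelial state.

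The sequences below are the 250 bases before the transcription start of the 3 genes called at D2 and D3 (Krt7, Twist1 and Zeb2) and of the keratin pair Krt8 and Krt18, whose signal was far below the reference. They are RefSeq sequences of build GRCm38.p6, written 5′ to 3′ on the strand of the gene. Capitals mark the E-box CACCTG or its reverse complement CAGGTG, the core that Snail and Zeb factors bind. Krt7 lies at chr15:101412153-101412402 on the plus strand, Twist1 at chr12:33957421-33957670 on the plus strand, Zeb2 at chr2:45117443-45117692 on the minus strand (the most upstream of 4 listed starts), Krt8 at chr15:102004343-102004592 on the minus strand and Krt18 at chr15:102027966-102028215 on the plus strand.

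Krt7: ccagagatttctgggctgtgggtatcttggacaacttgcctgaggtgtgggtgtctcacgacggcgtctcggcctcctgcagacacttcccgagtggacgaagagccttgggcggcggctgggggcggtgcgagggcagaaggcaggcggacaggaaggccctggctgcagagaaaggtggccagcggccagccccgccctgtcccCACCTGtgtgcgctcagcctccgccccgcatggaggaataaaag
Twist1: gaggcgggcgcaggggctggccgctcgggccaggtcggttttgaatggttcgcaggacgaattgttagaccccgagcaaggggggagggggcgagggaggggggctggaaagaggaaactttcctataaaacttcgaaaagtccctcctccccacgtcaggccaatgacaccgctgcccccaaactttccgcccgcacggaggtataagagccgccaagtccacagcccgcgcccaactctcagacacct
Zeb2: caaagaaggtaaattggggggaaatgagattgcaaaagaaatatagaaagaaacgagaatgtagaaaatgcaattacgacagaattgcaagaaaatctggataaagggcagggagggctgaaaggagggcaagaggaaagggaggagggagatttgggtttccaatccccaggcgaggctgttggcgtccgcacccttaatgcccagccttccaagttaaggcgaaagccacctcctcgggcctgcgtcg
Krt8: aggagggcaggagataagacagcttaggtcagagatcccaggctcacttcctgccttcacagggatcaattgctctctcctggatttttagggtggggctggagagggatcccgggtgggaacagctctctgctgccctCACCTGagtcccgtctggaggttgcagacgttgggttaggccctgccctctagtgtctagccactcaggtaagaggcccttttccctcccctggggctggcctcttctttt
Krt18: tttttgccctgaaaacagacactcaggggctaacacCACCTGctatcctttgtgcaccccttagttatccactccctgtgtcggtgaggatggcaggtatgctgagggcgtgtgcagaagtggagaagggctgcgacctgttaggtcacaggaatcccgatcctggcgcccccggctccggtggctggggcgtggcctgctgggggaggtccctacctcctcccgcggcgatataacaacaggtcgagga

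One E-box was found upstream of Krt7, ending 39 bases before the start, and one each upstream of Krt8 and Krt18, ending 106 and 209 bases before it. None was found in the windows of Twist1 and Zeb2. Of the 37 genes, 22 were in the promoter table, with 29 start sites, and 13 of those 29 windows (44.8%) held the E-box on either strand. Of all 32851 windows of the same length in the table, 17.2% held it. A match describes the letters in these windows and says nothing about binding in FE1 cells.

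Across the 22 arrays, 23688 to 39139 probes gave a Cy5 signal above the negative control spots, which is what "detected" means below, and 0.401% to 6.22% of the spots were set aside as outliers. The arrays lay on 5 slides, and slide was a term in the fit. Every group had 2 arrays on slide 1 and 1 on each of slides 2, 3 and 4, while slide 5 carried a single D1 and a single D3 array. A pair of arrays lay apart from their groups over the 28879 probes compared after removal of the slide effect. D1 replicate 1 correlated at -0.33 with the mean of the other D1 arrays and at 0.46 with that of D2, and D2 replicate 2 at -0.31 with D2 and 0.12 with D1. Results for D1 and D2 are therefore given with and without both. The methods describe fewer separate exposure experiments than there were arrays in a group, and the labels do not say which array came from which. Some arrays of a group therefore share an experiment, and p-values over arrays, which measure only the spread between them, may be too small.

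The first comparison set unexposed FE1 cells against the reference pool. In the 5 Control arrays, 23 of the 37 genes (62.2%) were detected in at least 4 arrays, close to the 60% of all named genes. Another 9 genes were detected in 1 to 3 Control arrays and 5 in none, namely Cdh1, Cldn3, Cldn18, Dsc2 and Ovol1. Of 11 epithelial marker genes, all of them among the 37, 7 were detected in at least 4 Control arrays and Cdh1 and Cldn3 in none. The only probe of Cdh1, the defining junction gene of an epithelium, was thus at background in this line, although the cells are labelled as lung epithelium. That probe was also dim in the reference, well above background on 3 of the 5 Control arrays. A weak probe and a low transcript level cannot be told apart here.

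A call needed a limma adjusted p (Benjamini-Hochberg over 55681 probes) of at most 0.05, a difference of 1.5-fold or more, and detection of the probe in 4 or more arrays of one of the groups (for the reference, of the brighter channel). Against the reference, 6 of the 37 genes (16.2%) were called higher in Control cells, where 9.01% of all named genes were, and 11 (29.7%) were called lower, where 16.3% of all named genes were. Ratios to the reference given with an SE are fitted values from the model of all 22 arrays, with each slide weighted equally. They can differ from the plain mean of the Control arrays. Dyes were not swapped, so any dye bias of a probe is part of these ratios. Signals were not background-subtracted, which compresses the ratios of dim probes. The split moved with the scaling: centring each array on its median in place of loess shifted the median of all named genes to -0.37 and gave 4 higher and 18 lower. The 7 genes that it added to those called lower were Krt7 (-0.89), Pkp3 (-1.39), Esrp1 (-0.61), Vim (-1.06), Snai1 (-1.26), Zeb1 (-0.71) and Zeb2 (-1.37), so "not called" for these genes below holds for the loess scaling.

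Simple-epithelial keratins, the filament proteins of single-layered epithelia, were 3 of the 11 genes called lower. The keratin partners Krt8 and Krt18, which pair to form one filament, were 20.9-fold (log2 -4.39 ± 0.16, fitted SE, n = 5 Control arrays, limma adjusted p = 9.82e-15) and 52.4-fold lower (log2 -5.71 ± 0.13, limma adjusted p = 7.18e-17). Both were still detected in all 5 Control arrays. Their Control log2 ratios were -4.96, -3.74, -4.51, -4.65 and -3.87 for Krt8 and -5.70, -4.96, -5.71, -5.95 and -5.76 for Krt18 in replicates 1 to 5. No Control array came near the reference for either gene, and in both the least negative value was that of replicate 2. Krt19, another simple-epithelial keratin, was 27.9-fold lower (log2 -4.80 ± 0.15). Krt7, a keratin of ducts and airways, was at -0.21 ± 0.09 and was not called. The basal-cell keratin Krt14 went the other way, and Krt5 did so less surely. Krt14 was called 3.84-fold higher (log2 1.94 ± 0.13) and its partner Krt5 1.52-fold higher (log2 0.60 ± 0.08), although the Krt5 call was lost under median centring (0.12), with normexp background correction, with the authors' processed values and with a replicate term in place of slide. Krt17 was at 0.02 and was detected in 1 Control array. Krt15, one of the further keratins counted below, was at -0.58, was detected in 3 Control arrays and was not called. A higher level was therefore not shown for basal-cell keratins as a class.

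Cell-cell adhesion genes were mixed. Cdh1 (E-cadherin) gave log2 ratios of -0.63, -0.22, -0.49, -0.14 and -0.10 in the Control arrays, with a reference signal that was itself well above background in only 3 of the 5. The bound this allows is a reference level at least 1.01-fold that of FE1 (channel means 5.84 and 5.50 on the log2 intensity scale, limma adjusted p = 0.00198), so the ratio of Cdh1 carries almost no information about its depth below the reference. Epcam, a surface adhesion molecule of epithelia, was well above background in the reference on 5 arrays and in FE1 cells on none. Over the 3 Control arrays whose Epcam spot was kept, the channel means were 8.96 and 6.50, which puts the reference 5.52-fold higher on average. Those 3 log2 ratios ran from -3.52 to -1.35, so 5.52-fold is not a lower bound. The fitted log2 ratio was -1.95 ± 0.29 with 2 Control spots dropped (limma adjusted p = 4.59e-05), where the plain mean of the 3 kept spots was -2.47. Cdh2 (N-cadherin), the cadherin of mesenchymal and neural cells, was 2.86-fold higher than the reference (log2 1.51 ± 0.11, limma adjusted p = 3.32e-10). Its Control values of 1.21, 1.25, 1.09, 1.95 and 1.72 were all above 0, and its other probe was also called higher (log2 1.06 ± 0.14). Vim (vimentin), the mesenchymal filament, was at -0.29 ± 0.19 and was not called.

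Tight junction genes showed 2 lower and 1 higher of 9. Cldn7, a claudin of simple epithelia, was at -2.16 ± 0.13 and Tjp3, the scaffold ZO-3, at -2.69 ± 0.12. F11r, the adhesion molecule JAM-A, was called higher at 0.73 ± 0.13 with 1 Control spot dropped, but was at -0.07 under median centring. Tjp1, the scaffold ZO-1, was at 0.55 ± 0.13, just under 1.5-fold, and Cldn4 at 0.24. Cldn1, Cldn3, Cldn18 and Ocln were detected in 0 to 2 Control arrays and lay between -0.13 and -0.01.

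Of 7 desmosome genes, 3 were called lower and 0 higher in this limma fit. Perp, a tetraspan membrane protein of desmosomes, was at -4.76 ± 0.18, but was detected in only 2 of the 5 Control arrays and well above background in 1. Its size is therefore loosely set, and ran from -3.87 with the authors' processed values to -7.06 with the scanner's log ratio. Dsp (desmoplakin), which ties the desmosome to keratin, was well above background in no Control array (channel means 7.23 and 5.98). With weaker FE1 signals raised to the lowest well-above-background level, the reference was 2.27-fold higher on average. Single Control log2 ratios ran from -1.96 to -0.54 and the fitted one was -1.17 (limma adjusted p = 2.47e-08). The other Dsp probe, at background in both channels, was at -0.16 and was not called. Pkp2 (plakophilin 2) was at -0.85 ± 0.10. Its relative Pkp3 was at -0.56 ± 0.10, under the fold threshold. Jup (plakoglobin) was at 0.24, and the desmosomal cadherins Dsg2 and Dsc2 were near 0 with few or no detected arrays.

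The regulators were also split. Esrp2 was called 3.89-fold higher (log2 1.96 ± 0.09), whereas its paralogue Esrp1 was at -0.13. Grhl2 at -1.40 ± 0.18 and Elf3 at -1.33 ± 0.13 were called lower, with FE1 signal detected in 1 and 3 of the 5 Control arrays. With the scanner's log ratio they were at -3.50 and -3.02 and with the authors' processed values at -0.93 and -0.83, called lower in each case. The other probe of Grhl2, also at background in both channels, was at -0.05 and was not called. The other probe of Krt5 was at 0.18 and was not called either. Among the EMT factors, Twist1, a basic helix-loop-helix protein of mesenchyme, was called higher than the reference (log2 1.63 ± 0.13, limma adjusted p = 3.38e-09). Zeb2 was 1.49-fold lower (-0.58 ± 0.09), just under the fold threshold. Snai1, Snai2 and Zeb1 were at -0.42, 0.46 and 0.12 and none was called, and all 5 EMT factors were detected in every Control array.

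**Figure D1:**
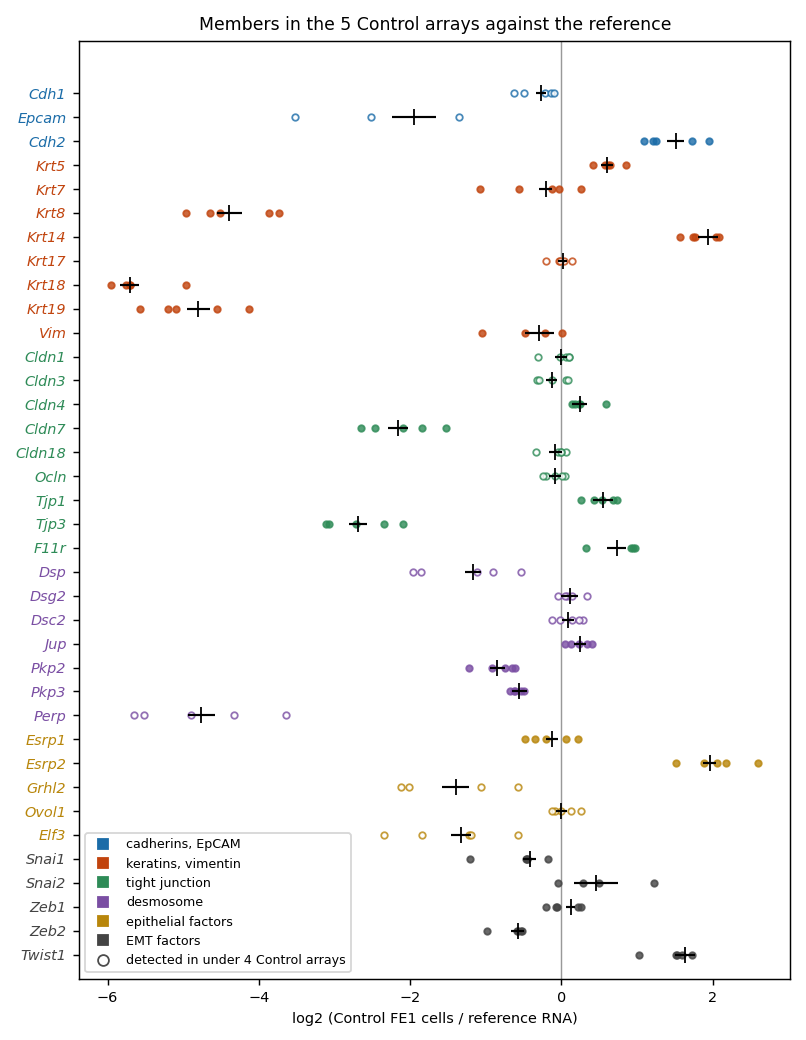
Log2 ratio of FE1 cells to reference RNA in the Control arrays for the 37 genes, ordered and coloured by role; circles are single arrays, open where the gene was detected in under 4 of the 5, and the black cross is the fitted mean with its SE. Krt8, Krt18, Krt19 and Perp lay furthest to the left, between -4.39 and -5.71, and Esrp2, Krt14, Twist1 and Cdh2 to the right of 1.

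The second set of comparisons asked how these genes responded to the nanotubes. Krt7, Zeb2 and Twist1 were called and the other 34 genes were not called at any dose. At D1, 0 of the 37 were called by limma, where 3.53% of all named genes were, and 5 had an unadjusted p under 0.05. At D2, 3 of 37 (8.11%) were called, where 5.95% of all named genes were, and at D3 the same 3 genes were called, where 8.3% were. The counts were the same (0, 3 and 3) without D1 replicate 1 and D2 replicate 2. The genes were Krt7 and Twist1, which fell, and Zeb2, which rose, so the share was near that of all genes and the direction was mixed. The median change of the 37 was 0.04, -0.03 and -0.03 at D1, D2 and D3, against 0 for all named genes. Their median absolute change was 0.12, 0.10 and 0.13, against 0.12, 0.13 and 0.13. The 95% interval of the change lay within 1.5-fold of Control in both directions for 28, 28 and 27 of the 37. Of 24 genes detected in at least 4 arrays of any group, 18, 17 and 16 had such an interval.

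**Figure D2:**
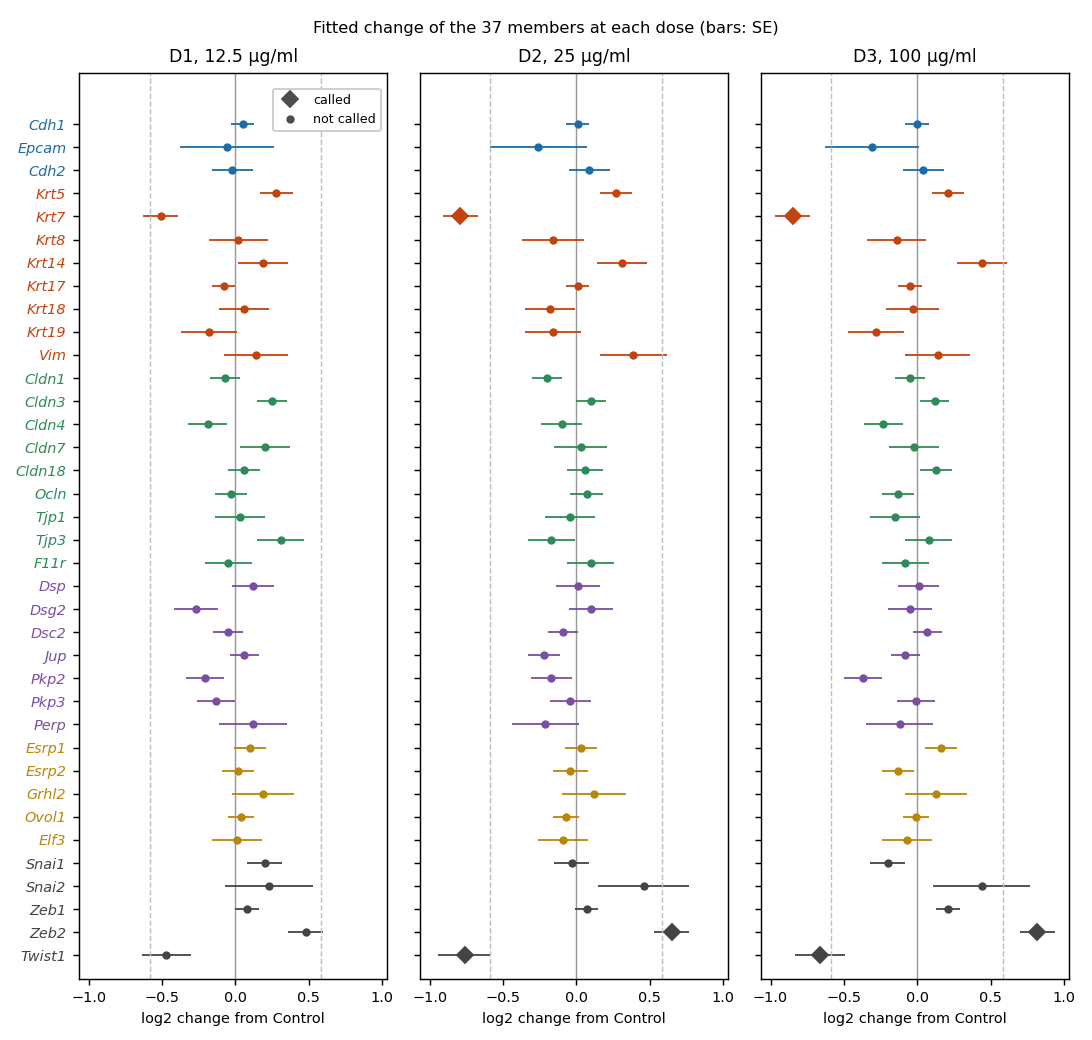
Fitted log2 change of the 37 genes from Control at D1, D2 and D3, with SE bars; diamonds are called genes and dashed lines mark 1.5-fold (0.58). Krt7 and Twist1 lay beyond the left line and Zeb2 beyond the right line at D2 and D3, and every other gene lay between the lines.

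Krt7 showed the steadiest fall. Its Control log2 ratios were -1.08, -0.56, -0.13, -0.03 and 0.26. The 6 D1 arrays ranged from -1.33 to -0.45 (median -0.75), the 5 D2 values were -1.52, -1.22, -0.90, -0.77 and -1.10, and the 6 D3 arrays ranged from -1.61 to -0.82 (median -1.02). The groups overlapped in these raw ratios because both slide 1 arrays of every group were the lowest of their group. Within a slide the order was plain: all 12 differences from the Control of the same slide were negative, from -1.36 to -0.31. The fitted change was -0.51 ± 0.12 at D1 (limma adjusted p = 0.0165, under 1.5-fold and not called), -0.79 ± 0.12 at D2 (1.73-fold lower, limma adjusted p = 0.000256) and -0.85 ± 0.12 at D3 (1.81-fold lower, limma adjusted p = 4.97e-05). At D1 it would have been called without Control replicate 1 (-0.62). Without D1 replicate 1 and D2 replicate 2 the changes were -0.48 at D1 and -0.86 at D2, called at D2. The D2 call was lost with no slide term, where the change was still -0.79 and the adjusted p 0.0535.

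Zeb2, a zinc-finger repressor of E-cadherin, rose. Its Control log2 ratios were -0.59, -0.53, -0.58, -0.98 and -0.52. At D2 they were 0.08, -0.09, 0.08, -0.06 and 0.07, all above every Control value, as were all 6 at D3 (-0.16 to 0.62, median 0.22) and 5 of the 6 at D1 (-0.55 to 0.29, median -0.09). The exception was D1 replicate 4 at -0.55, still above the Control array of its own slide. The fitted change was 0.48 ± 0.12 at D1 (limma adjusted p = 0.029, not called), 0.65 ± 0.12 at D2 (1.57-fold higher, limma adjusted p = 0.00223) and 0.82 ± 0.12 at D3 (1.76-fold higher, limma adjusted p = 0.000113), and all 12 within-slide differences were positive, from 0.31 to 1.07. Without D1 replicate 1 and D2 replicate 2 it was 0.37 at D1 and 0.67 at D2. The gene's other probe did not follow. That probe was dimmer, detected in 3 of 5 Control arrays, and its changes were 0.13, 0.25 and 0.05 at D1, D2 and D3, none called. The mean of both probes gave 0.45 and 0.43 at D2 and D3, under 1.5-fold, so the Zeb2 call rests on its brighter probe. It was also lost at D2 without D2 replicate 4 (0.58, adjusted p 0.0116), where the change fell just short of the fold threshold, and under median centring (0.67, adjusted p 0.18).

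Twist1 fell, and with the most scatter. Its Control log2 ratios were 1.03, 1.53, 1.72, 1.52 and 1.60. At D2 they were -0.08, 0.67, 0.65, 1.37 and 0.97, of which 4 lay below every Control value, and at D3 they ran from 0.30 to 1.36 (median 1.00), with 3 of 6 below. At D1 they ran from 0.03 to 1.56 (median 1.26), with 2 of 6 below, so that group overlapped Control widely. The fitted change was -0.47 ± 0.17 at D1 (limma adjusted p = 0.175), -0.76 ± 0.18 at D2 (1.70-fold lower, limma adjusted p = 0.0116) and -0.66 ± 0.17 at D3 (1.58-fold lower, limma adjusted p = 0.0196). Of 12 within-slide differences 11 were negative, from -1.06 to 0.04. This was the least stable of the 3 calls. At D3 it was lost without Control replicate 2 (-0.53, adjusted p 0.074), Control replicate 3 (-0.65, adjusted p 0.0554) or D3 replicate 6 (-0.62, adjusted p 0.0535), and at D2 without D2 replicate 3 (-0.67, adjusted p 0.0505). Without slide 1 it was -0.62 at D2 and -0.49 at D3 and was called at neither dose. Without slide 2 it was also called at neither (adjusted p 0.102 and 0.0738), nor with no slide term (0.182 and 0.274). The call was lost at D3 without slide 4 (adjusted p 0.0712) and with slide as a random block (0.0698), and at D2 under median centring (0.0701). Without the pair of arrays that lay apart it was -0.85 at D2 and -0.64 at D3 and was called at both.

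**Figure D3:**
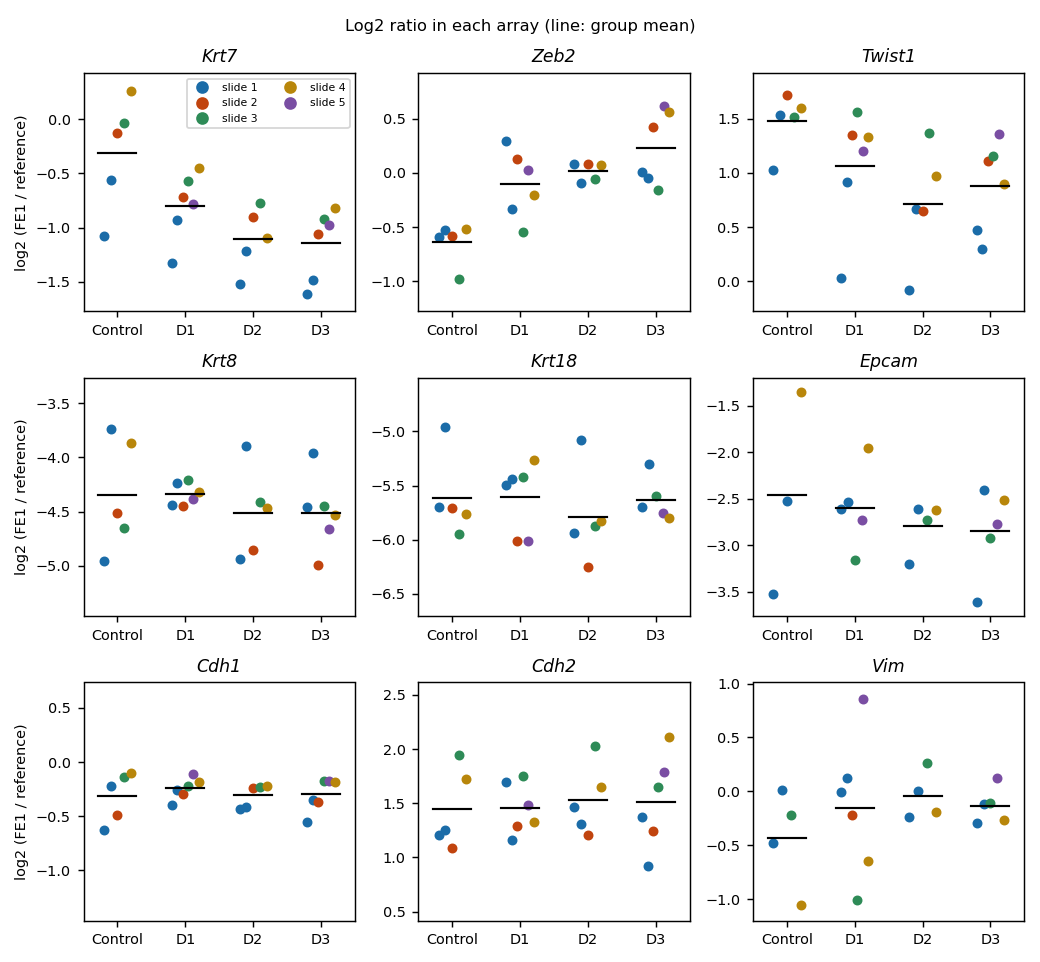
Log2 ratio of FE1 to reference in each array, by dose group, for the 3 genes called at D2 and D3 (top row) and 6 further keratin, adhesion and filament genes; points are arrays coloured by slide, lines are group means, and the vertical axes differ in range. The group means of Krt7 and Twist1 stepped down and that of Zeb2 stepped up from Control to D2 and D3. All D2 and D3 arrays of Zeb2 lay above every Control array, while some of Krt7 and Twist1 overlapped Control. The arrays of all 4 groups overlapped for Krt8, Krt18, Cdh1 and Cdh2.

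The epithelial and mesenchymal markers Cdh1, Epcam, Krt8, Krt18, Cdh2 and Vim did not pass the test at any dose. Krt7, also an epithelial marker, was called at D2 and D3 as given above. Other mesenchymal genes, some of them called, are counted below. Cdh1 was detected in 0 of 22 arrays, so its changes of 0.05, 0.01 and 0.00 compare background with background. Cdh2 ranged from 1.16 to 1.75 (median 1.41) at D1, from 1.21 to 2.03 (median 1.47) at D2 and from 0.92 to 2.11 (median 1.51) at D3, against 1.09 to 1.95 (median 1.25) in Control. The groups overlapped, although 1 D2 array and 1 D3 array lay above every Control array and 1 D3 array lay below. The fitted changes were -0.02 ± 0.14, 0.09 ± 0.14 and 0.04 ± 0.14, with a 95% interval of -0.25 to 0.33 at D3. Krt8 ranged from -4.45 to -4.21 at D1, -4.94 to -3.89 at D2 and -4.99 to -3.96 at D3, and its changes were 0.02, -0.16 and -0.14 (SE 0.20 to 0.21). Krt18 ranged from -6.01 to -5.26, -6.25 to -5.08 and -5.80 to -5.30, the last with 1 spot dropped, and its changes were 0.06, -0.18 and -0.03. Both keratins stayed far below the reference at every dose. Epcam, well above background in none of the 22 arrays and with 5 spots dropped, changed by -0.06 ± 0.32, -0.26 ± 0.33 and -0.31 ± 0.32, an error too wide to place it. Vim, with 3 spots of slide 2 dropped, changed by 0.14 ± 0.22, 0.39 ± 0.23 and 0.14 ± 0.22, and its D2 interval reached from -0.09 to 0.88.

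The remaining genes are given by role. The 9 tight junction genes lay between -0.19 and 0.31 at D1, -0.20 and 0.10 at D2 and -0.23 and 0.13 at D3. The 7 desmosome genes lay between -0.37 and 0.12 over the 3 doses. The largest of these was Pkp2 at D3, -0.37 ± 0.13, with an unadjusted p of 0.0116 and an adjusted p of 0.106 by limma. The 5 epithelial factors lay between -0.13 and 0.19. The basal keratin Krt14 was at 0.19, 0.31 and 0.44 with an adjusted p of 0.14 at D3, and 11 of its 12 within-slide differences were positive. Krt5 was at 0.28, 0.27 and 0.21 with adjusted p of 0.219, 0.216 and 0.335, and all 12 of its within-slide differences were positive, from 0.06 to 0.66, but its other, dimmer probe was at -0.19, 0.08 and -0.06. Krt19 was at -0.18, -0.16 and -0.28. Of the other EMT factors, Snai2 was at 0.23, 0.46 and 0.44 (SE 0.30 to 0.33, 5 spots dropped), Zeb1 at 0.08, 0.07 and 0.21, and Snai1 at 0.20, -0.03 and -0.20.

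Doses were also compared with each other. None of the 37 was called for D2 against D1, D3 against D2 or D3 against D1, where limma called 0%, 0% and 0.31% of all named genes. Unadjusted p under 0.05 was reached by 4, 0 and 3 of the 37. Krt7 was at -0.29 ± 0.12 for D2 against D1 and -0.35 ± 0.11 for D3 against D1 (adjusted p 0.868 and 0.283), and Zeb2 at 0.34 ± 0.11 for D3 against D1 (adjusted p 0.328). An increase with dose was therefore not shown for either gene, and the 3 comparisons with Control share their Control arrays.

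Further genes of the same processes were counted from lists written from general knowledge, but with earlier results of these data known. Of 42 other junction genes, all on the array, 2, 5 and 4 were called higher and 0, 0 and 1 lower at D1, D2 and D3, with medians of 0.03, 0.02 and 0.01. Of all named genes, 3.53%, 5.95% and 8.3% were called in either direction at these doses. Among the rises were Jam2 (junctional adhesion molecule 2) at D2, 1.17 ± 0.34, and Pkp1 (plakophilin 1, a desmosome plaque protein) at D3, 0.99 ± 0.13. Cldn15 fell by 0.67 at D3. Pkp1 was called at all 3 doses (0.62, 0.77 and 0.99), whereas its relatives Pkp2 and Pkp3 among the 37 were called at none. Of 11 other keratins, Krt23 was called higher at D1 and D2 (1.02 ± 0.12 and 0.79 ± 0.12) and Krt80 lower at D3 (-0.60 ± 0.12). Of 25 other epithelial-state genes, Klf4, a Krüppel-like factor of barrier epithelia, was called higher at all 3 doses (0.99, 1.32 and 1.42, SE 0.14), its relative Klf5 at D3 (1.17 ± 0.30), and the polarity gene Llgl2 lower at D1 (-0.61 ± 0.08).

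Of 23 other EMT and mesenchymal genes, limma called 0 higher at any dose and 6, 8 and 10 lower at D1, D2 and D3. The share of all named genes called in either direction was 3.53%, 5.95% and 8.3%. The median change of that list was -0.33, -0.50 and -0.61, and 17, 21 and 18 of the 23 changes were negative. The paper's own analysis of these arrays had already listed Col1a2 and Col3a1 as lower. The shift of the list is therefore not independent of earlier work on these data. The largest falls at D3 were the collagens Col3a1 (-1.70 ± 0.15) and Col1a2 (-1.52 ± 0.16) and the receptor Pdgfra (-1.53 ± 0.10), which are genes of fibroblasts and matrix. At D1 the receptor Pdgfra already stood at -1.27 ± 0.10. Twist1 changed in the direction of this list and Zeb2 in the opposite one.

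**Figure D4:**
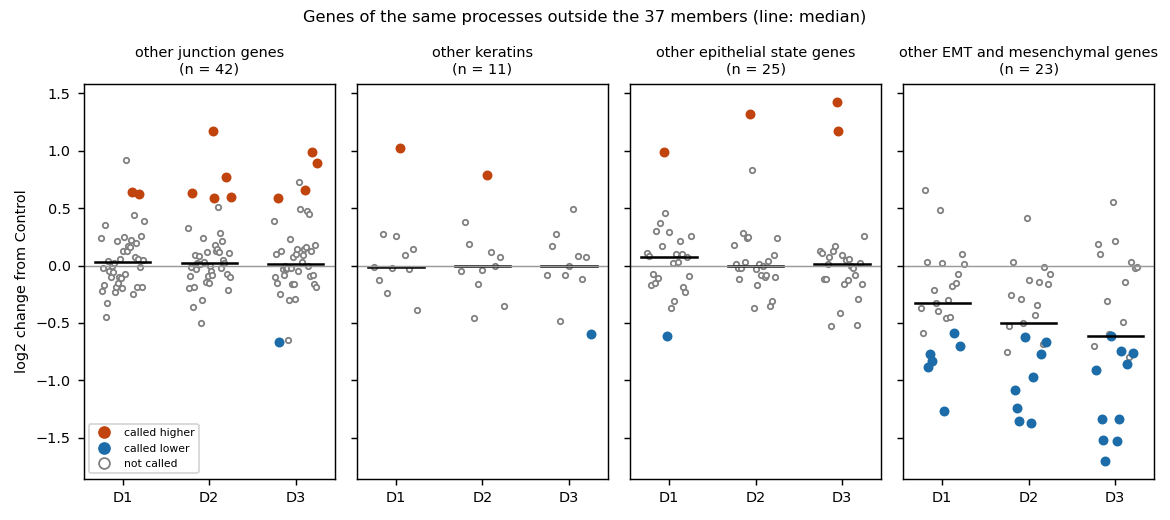
Fitted log2 change from Control at D1, D2 and D3 for genes of the same processes outside the 37, in 4 lists; filled red points were called higher, filled blue points called lower, open points not called, and lines are list medians. The EMT and mesenchymal list shifted down, with medians of -0.33, -0.50 and -0.61, and the medians of the other 3 lists lay between -0.01 and 0.07.

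Some genes used as markers of fibroblasts also fell, although all samples came from the single FE1 line. This list too was chosen with earlier results of these data known. Of 8 fibroblast markers, 6 of which are also in the EMT and mesenchymal list, 5, 6 and 6 were called lower at D1, D2 and D3. Of all named genes, 3.53%, 5.95% and 8.3% were called in either direction. Thy1 (0.10, -0.16 and -0.02) and Lum (-0.06, -0.27 and -0.40) were called at no dose. The mean log2 ratio of the 8 markers ranged from -0.50 to -0.06 in Control arrays and from -1.53 to -0.81 at D1. It ranged from -1.58 to -1.32 at D2 and from -1.81 to -1.29 at D3, with no overlap with Control at any dose. All 8 were detected in at least 1 Control array. The mean of the 11 epithelial markers ranged from -2.36 to -1.51 in Control and from -2.26 to -1.81 at D3. In bulk RNA of this line, fewer cells expressing these genes and less of their RNA per cell cannot be told apart. A separate fibroblast population was not shown. The part of the fibroblast markers in the change of Twist1 was not tested. Of the markers of endothelium, leukocytes, alveolar type 2, club and ciliated cells on the array, limma called 0 at any dose.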

How the data were processed

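Total RNA of FE1 cells (Cy5) and a common reference (Cy3) were hybridised on 22 two-colour Agilent arrays. Per the file headers, the authors' deposited scanner files hold spot intensities from Feature Extraction 10.7.3.1 (scanner G2505C) and a log10 ratio of red over green. The deposited processed table holds log2 ratios whose exact normalization is not given in the sources used here.

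Median intensities were used without background subtraction and normalized within each array by loess, after 3671 control spots and outlier spots had been left out. Spots of one probe were combined by their median. limma 3.58.1 in R 4.3.3 was fitted to all 22 arrays with group and slide, and p-values were adjusted (Benjamini-Hochberg) over 55681 probes. Detection meant a signal above the 5% trimmed mean plus 3 SD of 308 negative control spots. A 1.5-fold change was a log2 value of 0.58. The number of arrays limits the precision. Probe accessions were matched to RefSeq genes, which named 47.4% of the probes, and a probe's level was not set against another probe's.

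Values per array are given for genes called at any dose and for Cdh1, Epcam, Krt8, Krt18, Cdh2 and Vim, and up to 3 called genes with the largest change are named from each list of further genes, except for an item that is not reported here. The members and lists were chosen with earlier results of these data known. Same-numbered arrays of different groups deviated together in 31 of 31 pairs (r 0.19 to 0.82). Most of these pairs lay on the same slide and the slide effect was not removed, so this count cannot separate replicate number from slide. Within slide 1 the median r was 0.65 for the same number and 0.32 for other numbers, and the replicate number was fitted as a block in an alternative. The script was tested on simulated data. Other alternatives changed the background correction, normalization, thresholds, slide term, probe choice and arrays.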

Additional observations from a re-analysis of the deposited data

Results flagged for a closer look

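In 3 of 35 sets of 4 to 6 arrays, covering 9 genes, the highest or lowest array lay further from its nearest neighbour than Dixon's 95% limit allows, and chance gives about 1 in 20. All 3 were Control arrays. Zeb2 was at -0.98 in Control replicate 4, where the nearest array was at -0.59. Twist1 was at 1.03 in Control replicate 1, where the nearest was at 1.52. Krt18 was at -4.96 in Control replicate 2, where the nearest was at -5.70.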

How the results depend on the processing

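Krt7, Zeb2 and Twist1 kept their direction at D2 and D3 in all 15 other settings and in all 22 fits without 1 array. Settings that changed only the detection filter or the fold threshold used the same fit, so in those the direction could not change. The number of genes called at D1 (0) was 1 under median centring, 2 with the scanner's log ratio, 2 with no fold threshold and 1 without slide 1. At D2 (3) it was 1 under median centring, 1 with no slide term and 0 at 2-fold or more, and at D3 (3) it was 0 at 2-fold or more. Counts within 1.5-fold of the main count are left out of this listing. Over the 15 other settings the counts ran from 0 to 4 at D2 and from 0 to 3 at D3. At D3 the call of Twist1 was also lost with no slide term, and that of Zeb2 with the mean of a gene's detected probes. Against the reference, 18 were called lower under median centring in place of 11. Leaving out 1 array at a time gave 0 to 1 at D1, 2 to 3 at D2 and D3, 0 to 0 between doses, 5 to 7 higher and 11 to 12 lower than the reference. A fit with a replicate block instead of the slide term called 0, 3 and 3 genes at D1, D2 and D3. Against the reference that block gave 5 higher and 12 lower, with the call of Krt5 lost and that of Zeb2 gained, and it changed no other call. With slide as a random block Twist1 at D3 was -0.62 with a limma adjusted p of 0.0698. The causes were not tested. Genes near background, among them Cdh1, Cldn3 and Dsc2 in all 22 arrays, had too little signal for a change to be measured.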
